A study of Mus musculus with 6 samples.

Results

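The complement system was examined in livers of mice labelled as lacking Pex5 in the liver. Of 33 complement components, regulators and receptors chosen by name, 29 had a probe set assigned to exactly 1 symbol, out of 18193 genes measured this way. Each gene is represented by its probe set with the highest mean over all 6 arrays. C3, C4b, C7 and Cfd were not analysed here.

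Transcript levels came from Affymetrix arrays of whole liver from male mice aged 10 weeks. The 3 livers of the control group carry the genotype label WT and the 3 knockout (KO) livers the label L Pex5 -/-, a loss of Pex5 in the liver, and the labels give all of them the mixed background Alb-Cre Tac:[Sw]fBR. Pex5 is the receptor that brings enzymes into peroxisomes, and the albumin promoter that drives this Cre recombinase is active in hepatocytes, so that macrophages and endothelial cells of the same liver are not its target. Values are log2 levels, a difference is KO minus WT, an error is either the SD (3 livers) or the SE from limma, and a gene was called when its Benjamini-Hochberg adjusted p over all 18193 genes was under 0.05.

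Complement is a cascade of plasma proteins that marks microbes and damaged cells. The classical pathway starts with C1q bound to antibody, the lectin pathway with collectins and ficolins bound to sugars, and the alternative pathway runs without a recognition molecule, and all of them lead to cleavage of C3 and then of C5. The terminal components C6, C7, C8 and C9 join cleaved C5 in a pore, the membrane attack complex. Hepatocytes secrete most of these proteins, whereas C1q, properdin and ficolin A come largely from macrophages, which in the liver are the Kupffer cells. In mice the terminal components are known to be more abundant in males than in females.

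Before the members, the arrays themselves bear on every direction given here. Across genes, which are not independent replicates, the lowest correlation between arrays within a group was r = 0.9892 and the highest between groups 0.9758. Bacterial control transcripts were dimmer on the KO arrays by 0.51 (exact two-sided permutation test, p = 0.1, the smallest that 3 against 3 arrays allow). Centring the arrays on them adds 0.51 to every difference and moves the median over all genes from -0.05 to 0.46. Every direction is thus one against the bulk of genes in the deposited values, and 16 of the 29 members, including all 7 of macrophages and other myeloid cells, turned from a negative to a positive difference on the other scale. Pex5 itself differed by 0.18 ± 0.11 (SE, limma adjusted p = 0.262), and since the sources used here do not place its probe set relative to the deleted part, this value does not check the labels.

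Most complement transcripts assigned to hepatocytes were lower in KO livers, most of all those of the membrane attack complex. Those of macrophages were not called in either direction. Of the 29 members 15 were called lower and 0 higher in KO livers. Over all genes 9.75% were called lower and 14.2% higher, 24% in either direction. All 15 belonged to the 18 measured members assigned to hepatocytes, whose median difference was -0.88, against -0.30 over the 29 members and -0.05 over all genes. Of the 7 members of macrophages and other myeloid cells 0 were called, with a median of -0.18. At the shares of all genes, few calls would be expected among 7 genes. C1qa, C1qb, C1qc, Cfp and Fcna had an SE of 0.24 to 0.34, against 0.09 for C2, which was called at -0.50. A fall of that size could thus have been missed in these macrophage genes. Of the 7, 1 (C5ar1, a dim gene described below) was lower at an unadjusted p under 0.05, as were 3372 of all 18193 genes. The remaining 4, Colec11 and the membrane regulators Cd46, Cd55 and Cd59a, had 0 calls, also at an unadjusted p under 0.05. This assignment to cell types is textbook knowledge, and several genes, such as Serping1 and Clu, are made by more than 1 type. The 3 KO arrays lay wholly below the 3 WT arrays in 17 members, against 22.6% of all genes, and wholly above them in 0, against 22.1%. After centring on bacterial controls 9 members remained lower and 8 were called higher, where 2.25% of all genes were lower and 71.3% higher.

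**Figure D1:**
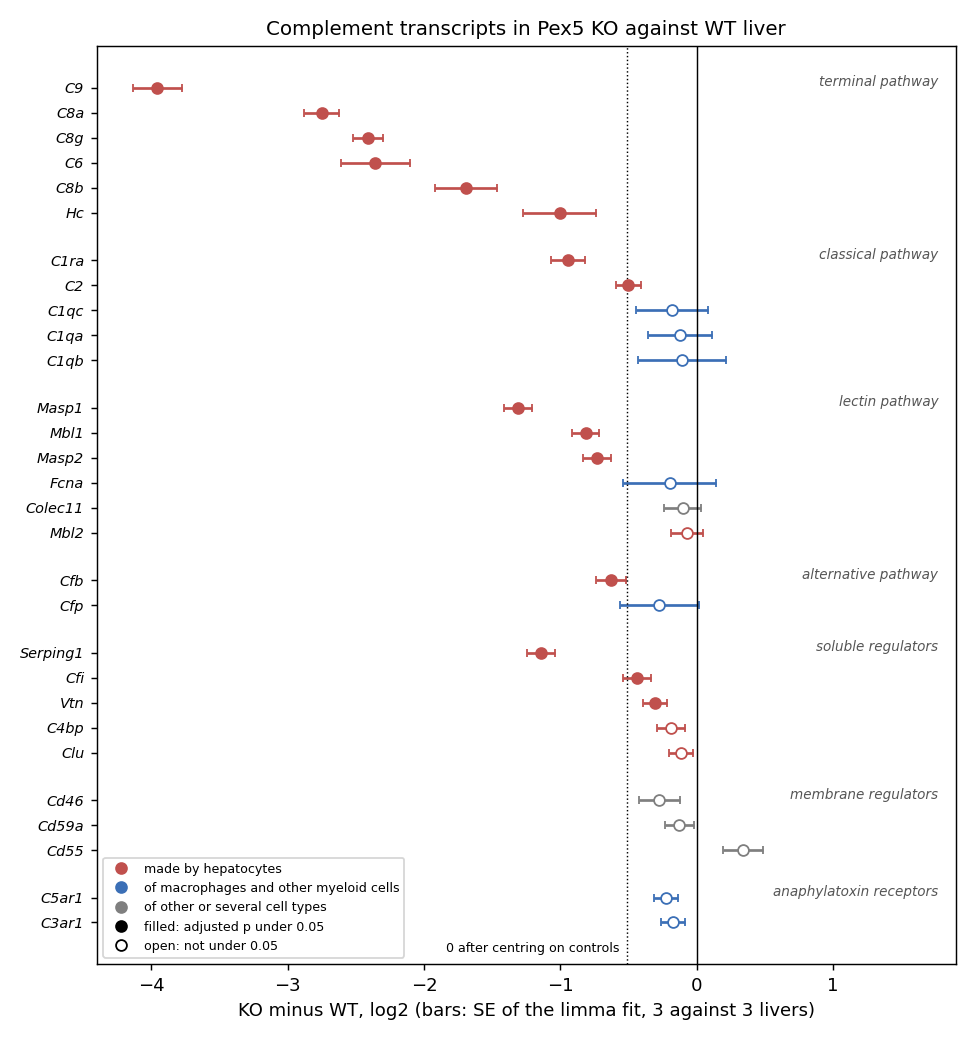
Differences between KO and WT liver (log2, horizontal axis, bars are the SE of the limma fit) of 29 complement genes, grouped by role and coloured by the cell type assigned to them. The terminal components lie farthest to the left, at -1.004 to -3.96, the macrophage genes lie between -0.27 and -0.11, and the dotted line marks where 0 would lie after centring on bacterial controls.

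All 6 measured terminal components were lower in KO livers. C9, whose molecules polymerise into the wall of the pore, stood at 13.25, 13.37 and 13.03 in WT replicates 1, 2 and 3 and at 8.86, 9.50 and 9.42 in KO replicates 1, 2 and 3. Each KO liver was thus far below each WT liver, and the mean fell 15.5-fold (-3.96 ± 0.18, SE, limma adjusted p = 1.11e-05). C8a, a chain of C8 that inserts into the membrane, stood at 12.72, 12.79 and 12.36 in WT and at 9.97, 9.81 and 9.85 in KO. This was a 6.72-fold fall (-2.75 ± 0.13, limma adjusted p = 1.29e-05). C8g, the lipocalin-like chain of C8, went from 12.84, 12.85 and 12.59 to 10.43, 10.23 and 10.41, a 5.31-fold fall (-2.41 ± 0.11). C6, which binds cleaved C5 first, went from 11.30, 11.58 and 10.89 to 8.87, 8.46 and 9.38, a 5.12-fold fall (-2.36 ± 0.25, limma adjusted p = 0.000558). In none of these genes did the groups overlap, and the WT liver of replicate 3 was the lowest of its group in all of them. C8b, the chain of C8 that docks onto the growing complex, stood at 11.19, 11.44 and 10.93 in WT and at 9.62, 9 (to 2 decimals) and 9.87 in KO, a 3.23-fold fall (-1.69 ± 0.23, limma adjusted p = 0.00167). These 5 falls kept their call on the scale of the bacterial controls, where the differences ran from -3.44 for C9 to -1.18 for C8b.

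Hc, the mouse gene of C5, fell least. It stood at 12.31, 12.39 and 12.26 in WT and at 11.58, 10.61 and 11.76 in KO, with KO replicate 2 well below the other KO livers. The mean was 2.01-fold lower (-1.004 ± 0.27, limma adjusted p = 0.0304, and 0.0134 to 0.138 in 14 alternatives). Hc lost its call when WT replicate 1, 2 or 3 was left out (0.0616, 0.0756 and 0.0604), when KO replicate 1 was (0.051), under trend and robust eBayes (0.0752) and after centring on bacterial controls (-0.49, 0.138). KO replicate 2 was also the lowest KO liver for C6, C8a, C8b and C8g, but the highest for C9.

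**Figure D2:**
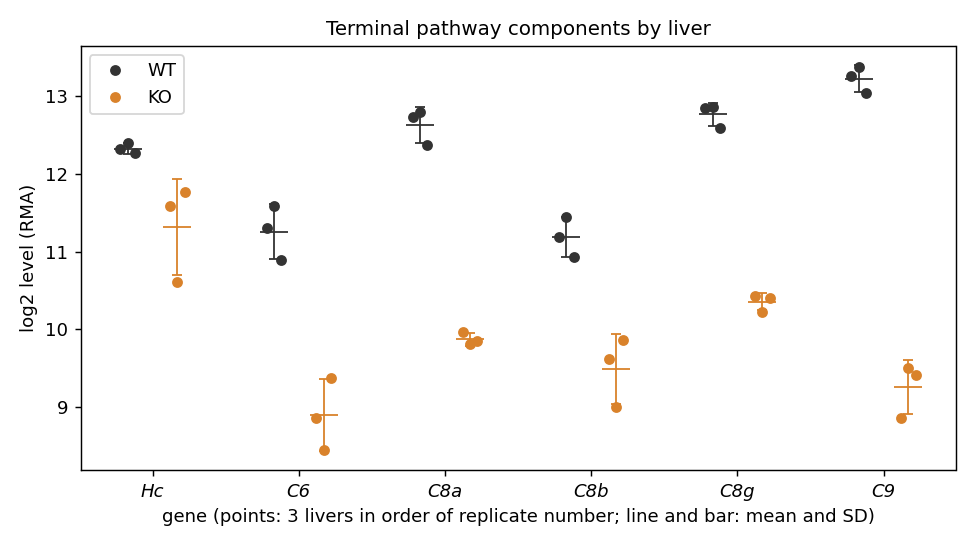
Log2 level (vertical axis) of the 6 terminal pathway genes in each liver, black for WT and orange for KO, with the mean and SD over 3 livers. In every gene the KO points lie below the WT points, from a difference of -1.004 for Hc to -3.96 for C9.

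The fitted falls had unequal sizes among genes whose products join in 1 complex. Each terminal gene was measured by 1 probe set, and probe sets of 1 gene can differ, as those of Masp1 do (-1.31 to -0.12). The sizes are thus those of probe sets, and whether the transcripts fell unequally was not tested. A difference between genes taken within each array is free of any centring of the arrays, and 8 such pairs were compared, chosen after their values were seen. C9 fell further than C8a, by -1.21 ± 0.25 (SE over livers), with the 3 KO livers at -1.70, -0.90 and -1.02 and the 3 WT livers at -0.06, -0.01 and 0.07 around the WT mean. C9 fell further than Hc by -2.95 ± 0.49. Among the C8 chains, C8a fell further than C8b by -1.06 ± 0.25 and further than C8g by -0.34 ± 0.07, although C8a and C8b are next to each other on chromosome 4. C6 and C8a differed in their fall by 0.39 ± 0.28, the only 1 of the 8 pairs whose groups overlapped (exact two-sided permutation test, p = 0.2). The other 7 pairs gave p = 0.1 in the same exact test, the smallest possible with 3 against 3 livers (0.114 adjusted over the 8 pairs), so that none could pass 0.05.

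The start sites of these genes are shown because their probe sets were lower together, by unequal amounts. RefSeq promoters, 250 bases before to 50 after the start on the build GRCm38.p6, were matched by symbol for 22 of the 29 members, with 23 promoters in all. They are printed 5′ to 3′ on the strand of the gene, for C9 at chr15:6445096-6445395 (plus strand), C8a at chr4:104876349-104876648 (minus strand), C6 at chr15:4726960-4727259 (plus strand) and Hc at chr2:35061363-35061662 (minus strand). Capitals mark matches to the motifs named after them.
C9: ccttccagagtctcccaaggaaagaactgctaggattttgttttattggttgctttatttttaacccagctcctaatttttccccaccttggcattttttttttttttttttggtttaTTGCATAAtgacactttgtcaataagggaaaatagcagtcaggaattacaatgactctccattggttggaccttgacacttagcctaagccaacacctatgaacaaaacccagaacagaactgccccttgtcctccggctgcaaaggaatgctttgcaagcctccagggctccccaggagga
C8a: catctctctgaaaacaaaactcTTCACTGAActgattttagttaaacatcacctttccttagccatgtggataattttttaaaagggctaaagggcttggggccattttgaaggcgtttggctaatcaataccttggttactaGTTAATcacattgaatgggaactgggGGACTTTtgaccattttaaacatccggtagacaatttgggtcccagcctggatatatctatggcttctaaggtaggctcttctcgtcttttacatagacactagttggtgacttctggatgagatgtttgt
C6: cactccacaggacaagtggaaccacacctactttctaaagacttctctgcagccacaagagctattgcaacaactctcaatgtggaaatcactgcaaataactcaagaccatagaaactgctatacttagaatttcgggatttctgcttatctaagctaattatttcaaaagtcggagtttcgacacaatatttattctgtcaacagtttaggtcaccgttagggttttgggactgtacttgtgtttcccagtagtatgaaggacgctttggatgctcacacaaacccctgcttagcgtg
Hc: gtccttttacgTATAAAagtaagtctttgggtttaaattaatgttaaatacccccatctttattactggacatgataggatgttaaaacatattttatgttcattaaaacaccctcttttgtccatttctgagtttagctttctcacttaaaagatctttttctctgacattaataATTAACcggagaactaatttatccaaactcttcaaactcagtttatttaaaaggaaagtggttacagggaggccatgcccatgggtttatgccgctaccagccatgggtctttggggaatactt
The 6 motif searches were run on both strands over these 300 bases and over all 32851 promoters of the table, and no match overlapped another in the promoters shown. A match is a description of the letters only. The letters TTGCNNAA, those of C/EBP factors, begin at -132 in C9 and occur in 10.8% of all promoters. In C8a the letters AAAGTCC, part of the HNF4 motif, lie on the opposite strand at -81 (4.21% of all promoters), and TTCNNNGAA, those of STAT factors, at -228 (8.3%). GTTAAT, a half-site of HNF1 found in 7.1% of all promoters, lies at -107 in C8a and on the opposite strand at -74 in Hc, which also holds TATAAA at -239 (13.6%). The promoter of C6 holds none of the 6 motifs. Across the 23 promoters of members, GTTAAT was found in 8 (C1ra, C4bp, C8a, C8b, Cd55, Cfp, Hc and Vtn), HNF4 letters in 1, C/EBP letters in 2 (C9 and C1ra) and STAT letters in 5 (C1ra, C8a, Colec11, Masp2 and Vtn).

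In the classical pathway the proteases were lower and the recognition molecule was not called. C1ra, the protease that C1q activates, stood at 10.88, 10.88 and 10.77 in WT and at 9.80, 9.74 and 10.16 in KO. The groups did not overlap, and the mean fell 1.92-fold (-0.94 ± 0.13, limma adjusted p = 0.00171). C2, the protease part of the classical C3 convertase, went from 9.75, 9.66 and 9.63 to 9.10, 9.19 and 9.25, a 1.41-fold fall (-0.50 ± 0.09, limma adjusted p = 0.00616). All 3 probe sets of C2 were lower, by -0.50 to -0.57. On the scale of the bacterial controls C1ra was still lower (-0.43, limma adjusted p = 0.03), whereas C2 was not called (0.013, adjusted p = 0.914). C1qa, C1qb and C1qc, the 3 chains of C1q, differed by -0.12 ± 0.24, -0.11 ± 0.32 and -0.18 ± 0.27.

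In the lectin pathway the collectins parted. Mbl1, mannose-binding lectin A, stood at 11.31, 11.32 and 11.20 in WT and at 10.59, 10.45 and 10.35 in KO, a 1.75-fold fall (-0.81 ± 0.10, limma adjusted p = 0.00109). Mbl2, mannose-binding lectin C, stood at 12.61, 12.60 and 12.73 in WT and at 12.44, 12.48 and 12.80 in KO, with overlapping groups (-0.07 ± 0.12, adjusted p = 0.685). Within arrays Mbl1 fell further than Mbl2 by -0.74 ± 0.20 (exact two-sided permutation test, p = 0.1, the smallest possible). The proteases that both collectins activate were lower. Masp1 went from 10.21, 10.33 and 10.32 to 8.93, 8.86 and 9.14, a 2.48-fold fall (-1.31 ± 0.10, limma adjusted p = 0.000134). Masp2 went from 10.66, 10.81 and 10.60 to 10.06, 9.83 and 9.98, a 1.66-fold fall (-0.73 ± 0.10, limma adjusted p = 0.00219). Colec11, a collectin of several liver cell types, differed by -0.10 ± 0.13 with overlapping groups, and Fcna, ficolin A, is described with the macrophage genes. After centring on bacterial controls Masp1 (-0.80) and Mbl1 (-0.30) remained lower, Masp2 lost its call (-0.22, adjusted p = 0.135), and Mbl2 and Colec11 were called higher (0.44 and 0.41).

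**Figure D3:**
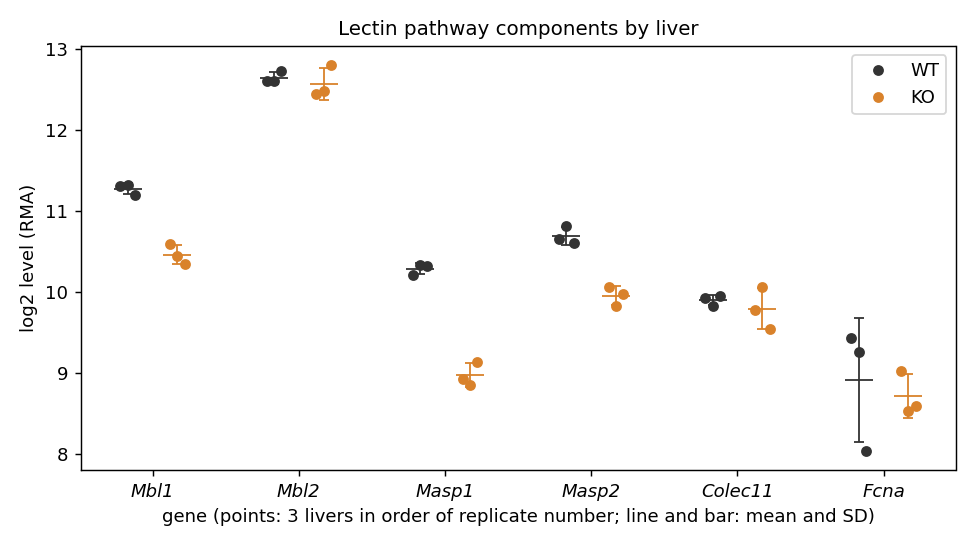
Log2 level (vertical axis) of the 6 lectin pathway genes in each liver, black for WT and orange for KO, with the mean and SD over 3 livers. Mbl1, Masp1 and Masp2 have KO points below all WT points, whereas Mbl2, Colec11 and Fcna overlap, and WT replicate 3 lies at 8.04 for Fcna.

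Masp1 differs by probe set. The gene has 5 of them, all of which were lower in KO in direction, but only 2 were called, at -1.31 ± 0.10 and -0.37 ± 0.09 (limma, adjusted over all probe sets). The other 3 differed by -0.34, -0.31 and -0.12. The gene is known to give rise to several proteins by splicing, and which transcript each probe set covers was not analysed here. With the mean of all probe sets in place of the brightest, the relation of Masp1 to Masp2 turned from -0.58 to 0.22.

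Of the alternative pathway, Cfb and Cfp were measured. Cfb, factor B, the protease part of the alternative C3 convertase, stood at 12.04, 11.81 and 11.78 in WT and at 11.24, 11.13 and 11.37 in KO. The groups did not overlap, and the mean fell 1.55-fold (-0.63 ± 0.11, limma adjusted p = 0.00577), a call that was lost after centring on bacterial controls (-0.12, adjusted p = 0.416). Cfp is properdin, which stabilises that convertase and comes from myeloid cells.

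Soluble regulators ranged from a clear fall to no call. Serping1, the C1 inhibitor that blocks C1r, C1s and the MASP proteases, stood at 13.22, 13.21 and 13.08 in WT and at 12.09, 11.88 and 12.12 in KO. This was a 2.20-fold fall (-1.14 ± 0.10, limma adjusted p = 0.00025), and -0.63 on the scale of the bacterial controls. Within arrays Serping1 and its target C1ra differed in their fall by -0.20 ± 0.10. Cfi, factor I, which cleaves C3b and C4b, went from 13.35, 13.21 and 13.05 to 12.75, 12.74 and 12.80 (-0.44 ± 0.10, limma adjusted p = 0.0182). The groups did not overlap, but the call was lost without KO replicate 1 or 2 (adjusted p = 0.0693 and 0.0696), and after centring on bacterial controls the difference turned to 0.074. Vtn, vitronectin, which keeps terminal complexes from membranes, went from 13.54, 13.46 and 13.46 to 13.18, 13.12 and 13.24 (-0.30 ± 0.09, limma adjusted p = 0.0382, and 0.00352 to 0.134 in 14 alternatives). Vtn lost its call when WT replicate 1 or 2 was left out (0.0828 and 0.0697), likewise KO replicate 1, 2 or 3 (0.115, 0.134 and 0.068), with a replicate block (0.0665), with the arrays centred on their median (0.0609), and on the scale of the bacterial controls, where it turned to 0.21. Adjusted over all probe sets instead of genes it also missed the threshold (0.0511), whereas the other probe set of Vtn was lower by -0.70 ± 0.09 and was called. Clu, clusterin, a chaperone that also binds terminal complexes, differed by -0.12 ± 0.09, and its 4 probe sets by -0.12 to -0.19. C4bp, which binds C4b as a cofactor of factor I, differed by -0.19 ± 0.10 with overlapping groups. Clu and C4bp turned to 0.40 and 0.33 after centring on bacterial controls and were called higher there.

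The promoter of C4bp is shown for comparison with that of Hc because both hold the letters GTTAAT while Hc was called lower and C4bp was not. The call of Hc was lost in several settings, and a role of these letters was not tested. It lies at chr1:130661569-130661868 (minus strand), with the match at -64 in capitals.
C4bp: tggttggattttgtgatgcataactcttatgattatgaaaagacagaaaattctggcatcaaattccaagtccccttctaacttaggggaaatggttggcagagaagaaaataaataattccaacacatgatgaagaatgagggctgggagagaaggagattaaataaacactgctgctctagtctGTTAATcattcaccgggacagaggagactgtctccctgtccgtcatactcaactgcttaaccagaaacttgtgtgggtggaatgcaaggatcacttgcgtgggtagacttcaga

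**Figure D4:**
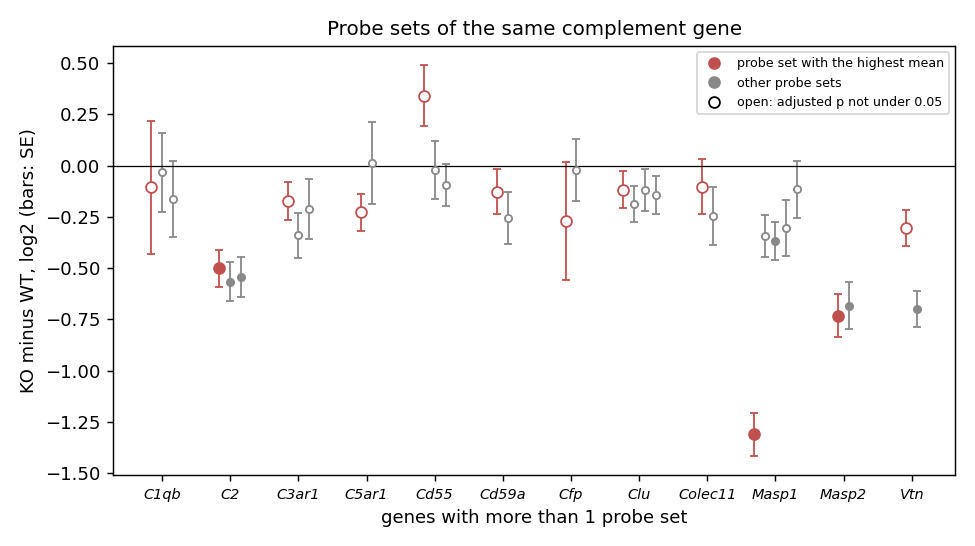
Difference between KO and WT (log2, vertical axis, bars are the SE) for each probe set of the 12 complement genes with more than 1, red for the probe set with the highest mean, filled where the adjusted p over all probe sets was under 0.05. The probe sets of C2, Masp2 and Clu lie close together, while Masp1 spans -1.31 to -0.12 and Vtn -0.70 to -0.30.

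The complement genes of macrophages were not called in either direction, and 5 of the 7 were lowest in WT replicate 3. C1qa stood at 9.72, 9.60 and 8.79 in WT replicates 1, 2 and 3 and at 9.42, 9.04 and 9.29 in KO. C1qb stood at 9.57, 9.34 and 8.28 in WT and at 9.27, 8.60 and 9.01 in KO. C1qc stood at 9.18, 8.97 and 8.07 in WT and at 8.67, 8.35 and 8.65 in KO. In all 3 chains the KO livers lay between WT replicate 3 and the other two WT livers, and the means differed by less than the SD within WT (limma adjusted p = 0.733, 0.831 and 0.642). Fcna, a ficolin of macrophages that starts the lectin pathway, stood at 9.44, 9.26 and 8.04 in WT and at 9.03, 8.53 and 8.59 in KO (-0.20 ± 0.34). Cfp stood at 7.89, 7.60 and 6.66 in WT and at 7.30, 6.90 and 7.14 in KO (-0.27 ± 0.29). The same WT liver, replicate 3, was thus the lowest of all 6 arrays in these 5 genes. The differences of C1qa (0.39), C1qb (0.41), C1qc (0.33), Fcna (0.32) and Cfp (0.24) turned positive after centring on bacterial controls and were not called. In whole liver, fewer macrophages and less of a transcript per macrophage cannot be told apart.

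The 3 chains of C1q are encoded side by side on chromosome 4. The promoter of C1qc, at chr4:136892865-136893164 (minus strand), is shown for comparison with those of the hepatocyte genes, with the letters GAGGAAG of the myeloid factor PU.1, found on the opposite strand at -194, in capitals. They occur in 13.6% of all promoters and in 2 of the 23 promoters of members, those of C1qc and Fcna, a share below that of all promoters.
C1qc: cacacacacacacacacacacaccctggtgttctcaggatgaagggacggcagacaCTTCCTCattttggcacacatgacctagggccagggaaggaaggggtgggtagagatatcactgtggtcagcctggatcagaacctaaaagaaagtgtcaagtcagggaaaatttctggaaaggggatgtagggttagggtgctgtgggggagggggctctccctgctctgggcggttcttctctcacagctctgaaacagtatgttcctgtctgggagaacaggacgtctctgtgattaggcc

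Kupffer cell markers followed the same order over the livers. The median of 12 markers, each taken relative to its WT mean, was 0.41, 0.24 and -0.72 in WT replicates 1, 2 and 3 and 0.05, -0.29 and -0.07 in KO, and that of the 7 macrophage complement genes was 0.44, 0.23 and -0.67 in WT and -0.07, -0.39 and -0.17 in KO. WT replicate 3 was the lowest WT liver in all 12 markers, which include Clec4f, Vsig4, Cd5l and Timd4. Of the 12, 0 were called in KO, and 0 differed at an unadjusted p under 0.05. At that unadjusted threshold 3636 of all 18193 genes were higher and 3372 lower. The summed level of the 12 markers on the log2 scale ran from 12.33 to 13.20 in WT and from 12.73 to 13.11 in KO. Without WT replicate 3, Cfp (-0.63 ± 0.15, limma adjusted p = 0.0251), C1qc (-0.52 ± 0.13, adjusted p = 0.0344) and Fcna (-0.64 ± 0.16, adjusted p = 0.0346) were called lower, with a median of -0.50 over the 7 genes, while 8.5% of all genes were called lower. In the same fit 3 of the 12 Kupffer cell markers were called lower, with a median of -0.52, and 14 of the 18 hepatocyte members. WT replicate 3 was left out here after it was seen to be low in most of these genes. More negative differences of the Kupffer cell markers and of the macrophage genes low in that liver follow from that choice. C3ar1, not low there, went from -0.17 to -0.14, and C5ar1 stayed at -0.23. Without WT replicate 1 instead, 0 of the 7 macrophage genes were called and their median was 0.041. The part of the Kupffer cell content in these values was not tested.

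**Figure D5:**
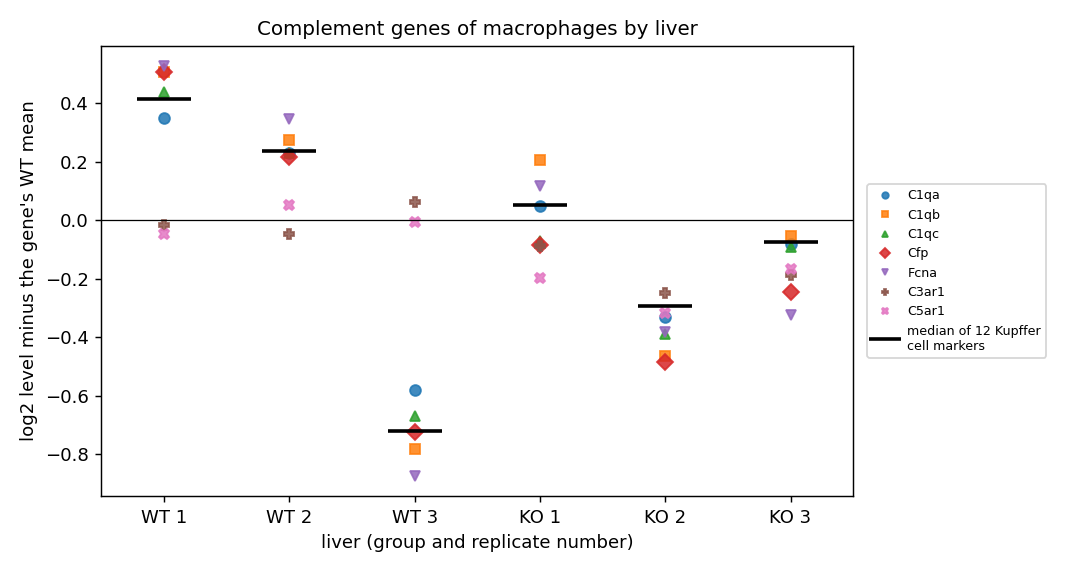
Log2 level minus the mean of the WT livers (vertical axis) of the 7 complement genes of macrophages in each liver, with the median of 12 Kupffer cell markers as a black line. C1qa, C1qb, C1qc, Cfp and Fcna lie with the markers, lowest in WT replicate 3 (markers at -0.72), whereas C3ar1 and C5ar1 do not drop there.

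The anaphylatoxin receptors behaved otherwise. C3ar1, the receptor of the C3 fragment released on activation, stood at 5.87, 5.84 and 5.95 in WT and at 5.80, 5.64 and 5.70 in KO (-0.17 ± 0.09, limma adjusted p = 0.199). C5ar1, the receptor of the corresponding C5 fragment, stood at 4.87, 4.97 and 4.91 in WT and at 4.72, 4.60 and 4.75 in KO (-0.23 ± 0.09, limma adjusted p = 0.103). All KO livers lay below all WT livers in both, as in 22.6% of all genes, yet neither was called. WT replicate 3 was not low in either. The other probe set of C5ar1 differed by 0.013 with overlapping groups. Those of C3ar1 differed by -0.34 and, with overlapping groups, -0.21, and neither was called. C5ar1 sits at the background of 4.90, the 95th percentile of mean levels among 39 olfactory receptors that liver should not express, and all its KO arrays were below it, so that its difference has no fixed size. After centring on bacterial controls both turned and were called higher (0.34 and 0.29).

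The membrane regulators, which protect host cells, were not called. Cd55, which speeds the decay of convertases, was the only member higher in direction, at 6.38, 6.21 and 5.94 in WT and 6.61, 6.67 and 6.28 in KO (0.34 ± 0.15, limma adjusted p = 0.132). Its groups overlapped, and its 2 dimmer probe sets differed by -0.10 and -0.02. After centring on bacterial controls Cd55 was called higher (0.85, adjusted p = 0.00116). Cd59a, which blocks the polymerisation of C9, differed by -0.13 ± 0.11, and Cd46, a cofactor of factor I, by -0.27 ± 0.15. On that scale Cd59a turned to 0.39 and was called higher, and Cd46 turned to 0.24 and was not called.

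Other genes of the pathway, taken from a list of 31 names of which 19 were measured, were called lower in 6 (31.6%, against 9.75% of all genes) and higher in 0 (against 14.2%), with a median of -0.18. Susd4, a membrane protein with sushi domains that inhibits complement, fell 8.38-fold, from 9.43 ± 0.08 to 6.37 ± 0.13 (SD, n = 3; -3.07 ± 0.10, SE, limma adjusted p = 3.93e-06). C1s1, the protease that C1r activates, fell 2.47-fold (-1.30 ± 0.12). Colec12, a scavenger receptor collectin, fell 2.68-fold (-1.42 ± 0.17), and Cpn2, a subunit of the carboxypeptidase that inactivates anaphylatoxins, 1.95-fold (-0.96 ± 0.11). These 4 were also lower after centring on bacterial controls, by -2.55, -0.79, -0.91 and -0.45.

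Markers of hepatocytes were taken as a description of the tissue. Of 6 measured ones, 1 was called higher (Ahsg, 0.28 ± 0.08) and 1 lower (Fgb, -0.49 ± 0.09). The KO arrays lay wholly above the WT arrays in 2, against 22.1% of all genes, and wholly below them in 2, against 22.6%. The summed level of the 6 markers on the log2 scale ran from 16.66 to 16.69 in WT and from 16.65 to 16.69 in KO. Alb, Apoa1 and Ttr make up most of this sum. Their means of 14.6, 14.4 and 14.3 lie near the highest value of 14.9, so the sum cannot settle the hepatocyte content. The summed level of the 18 hepatocyte members ran from 16.46 to 16.63 in WT and from 15.64 to 15.85 in KO, without overlap. Among other cell types, 3 of 8 markers of monocytes and monocyte-derived macrophages were called higher and 0 lower. The 3 were Gpnmb (2.17 ± 0.35), Cd9 (1.36 ± 0.18) and Lgals3 (1.26 ± 0.26). Trem2 (-0.25 ± 0.10) and Ccr2 (-0.37 ± 0.15) were lower at an unadjusted p under 0.05, as were 3372 of all 18193 genes. Of the 8, 5 had a positive difference, and the median was 0.07. The summed level of the 8 ran from 9.98 to 10.45 in WT and from 11.06 to 11.19 in KO, with Cd9 the brightest (KO mean 10.46). Of 8 markers of sinusoidal endothelium, 1 was called higher (Lyve1, 2.06 ± 0.31) and 3 lower (Clec4g, Fcgr2b and Kdr, -0.42 to -0.31). Of 8 stellate cell markers 2 were called lower (Reln, -0.50 ± 0.09, and Dcn, -0.33 ± 0.09), of 5 bile duct markers 1 (Krt19, -0.51 ± 0.15) and of 6 neutrophil markers 1 (Ngp, -0.44 ± 0.12). Of 4 adipocyte markers 1 was called higher (Cidec, 1.29 ± 0.17), and of 7 lymphocyte markers 0 were called. None of these lower markers had a negative difference after centring on bacterial controls. Over all genes 14.2% were called higher and 9.75% lower. The share was 37.5% for the higher monocyte markers and the lower endothelial markers, and 12.5% to 25% for the other calls. In lists this short, 1 or 2 calls are not read as a change of a cell type. The part of these cell types in the complement values was not tested.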

How the data were processed

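Total RNA of 6 livers from Trizol extracts was biotin-labelled for Affymetrix arrays, per the labels' protocols. The authors deposited a log2 level for each probe set, and the submitters' processing notes name RMA without a version. RMA forces the arrays towards 1 distribution, so changes are relative, and dim probe sets have compressed differences. The log2 scale was read from the values (2.15 to 14.9). Of 45101 probe sets, 34945 had 1 symbol in the platform annotation, 932 had several and 9160 non-control ones had none. Each of 18193 genes takes the probe set with the highest mean.

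A linear model with group as its only factor was fitted with limma 3.58.1 (R 4.3.3), moderated by eBayes and tested two-sided, and p-values were adjusted by Benjamini-Hochberg over all genes. On simulated data for this comparison with the spread of these arrays, the fit found 26.9%, 74.6% and 100% of genes given log2 changes of 0.5, 1 and 2. The number of arrays limits the precision. Motifs were searched as exact letters in RefSeq promoters, and the HNF1 half-site took the place of a longer form searched first.

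The members and gene lists were chosen with earlier results of these data known. Every measured member is named, and of other lists up to 4 called genes per direction with the largest difference (markers up to 3). Other settings tried were a block on replicate number, a filter on genes at or under the background (12042 genes left), quantile normalization, centring on array medians or on 38 bacterial control probe sets, the mean of all probe sets, trend and robust eBayes, array weights, a threshold of 0.01, a minimum of 1.5-fold, and leaving out each array. WT and KO livers share replicate numbers, but deviations of same-numbered livers from their group means had correlations of only 0.105, -0.018 and 0.105. Those of livers with different numbers ran from -0.192 to 0.116, so the numbers were not taken as pairs.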

Additional observations from a re-analysis of the deposited data

How the results depend on the processing

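After centring on bacterial controls, 8 members were higher and 9 lower (hepatocyte members 3 and 9, macrophage members 2 and 0). Over all genes 71.3% were higher and 2.25% lower there. The medians were 0.21 over all members, -0.36 over hepatocyte members and 0.33 over macrophage members, against 0.46 over all genes. On that scale 16 members changed sign, namely C1qa (0.39), C1qb (0.41), C1qc (0.33), C2 (0.013), C3ar1 (0.34), C4bp (0.33), C5ar1 (0.29), Cd46 (0.24), Cd59a (0.39), Cfi (0.074), Cfp (0.24), Clu (0.40), Colec11 (0.41), Fcna (0.32), Mbl2 (0.44) and Vtn (0.21). This follows from the 0.51 added to every difference, and for the other settings the cause was not tested. The median over all members was -0.37 with the filter on low values, -0.39 with quantile normalization, -0.44 with the mean of all probe sets and -0.40 with array weights. That of the hepatocyte members was -0.76 with the mean of all probe sets, under which the relation of Masp1 to Masp2 was 0.22. Leaving out each array gave 12 to 17 lower members and medians of -0.53 to -0.27 over all members. It gave 12 to 14 lower hepatocyte members with medians of -0.92 to -0.74, and 0 to 3 lower macrophage members with medians of -0.50 (without WT replicate 3) to 0.041 (without WT replicate 1). Leaving out 1 array turned the sign of C1qa (-0.41 to 0.055 over the 6 fits), C1qb (-0.50 to 0.15), C1qc (-0.52 to 0.041), Fcna (-0.64 to 0.067) and Colec11 (-0.23 to 0.021). Of the 15 members called lower, 12 kept the call in each of these 6 fits, and Cfi, Hc and Vtn did not. A replicate block left 14 lower members, all of them hepatocyte members, and lost only Vtn among the calls. Correlations of same-numbered livers were 0.105, -0.018 and 0.105. The threshold of 0.01 and the minimum of 1.5-fold each left 12 lower members. Dim probe sets such as that of C5ar1 limit what can be seen of receptors.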

Other observations

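Signalling genes and transcription factors known to drive complement transcription were examined as a separate list, of which 17 of 21 genes were measured, and 3 were called higher and 3 lower in KO livers. Each is 17.6% of the list, against 14.2% of all genes called higher and 9.75% called lower, so that the share of higher calls is near that of all genes. Il6ra, the receptor subunit for the acute phase cytokine interleukin 6, fell 3.45-fold, from 8.22 ± 0.42 to 6.44 ± 0.17 (SD, n = 3; -1.79 ± 0.20, SE, limma adjusted p = 0.000748). Il1r1, the receptor of interleukin 1, fell 2.12-fold (-1.08 ± 0.13). Stat3, which acts downstream of interleukin 6, was lower by -0.50 ± 0.12 (limma adjusted p = 0.0194) but by 0.013 in the other direction after centring on bacterial controls. The interferon gamma receptor chains Ifngr1 and Ifngr2 rose 2.09-fold and 1.69-fold (1.06 ± 0.22 and 0.75 ± 0.11), and the bile acid receptor gene Nr1h4 rose 1.58-fold (0.66 ± 0.12). Named outside the rule, after their values were seen, the hepatocyte factors Hnf4a and Cebpa differed by 0.11 ± 0.11 and -0.33 ± 0.13 and were not called (limma adjusted p = 0.514 and 0.109), although Hnf4a was called higher after centring on bacterial controls (0.62).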
